A study of Rattus norvegicus with 192 samples.

Results

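Gclm, Idh2, Gpx1, Gstk1 and Gsto1 encode enzymes that make glutathione, keep it reduced or use it. They were chosen by name and by the gene IDs that the study's list of diet-responsive genes pairs with them (ENSRNOG00000013409, ENSRNOG00000013949, ENSRNOG00000048812, ENSRNOG00000016484 and ENSRNOG00000028746), so the choice is not independent of the liver result given first. They are 5 of the 12563 genes in the 8 deposited mRNA tables, and all 5 stand in every table, which means that no filter on low values removed a member. The tables cover 4 tissues (liver, adipose tissue, kidney and the prefrontal cortex, PFC) from 24 male rats, which were Zucker Diabetic Fatty (ZDF) animals (fa/fa), a model of type 2 diabetes with a mutated leptin receptor, or their lean controls (fa/+). The rats arrived at 6 wk of age, were caged in pairs and were fed for 8 wk on whole egg or on casein, both at 20% protein by weight, in 4 groups of 6. Fat came from the egg in the whole egg diet and from corn oil in the casein diet, so protein source and fat source changed together. The whole egg diet also held less cornstarch and, unlike the casein diet, added biotin.

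Genotype here follows the names of the tables and columns, because the strain in the sample labels gave the other genotype for 12 of the 24 rats. Diet did not differ between the sources for the mRNA libraries. A test of diet inside a table takes the genotype in its name as that of all its rats. By the strain labels the ZDF tables mix genotypes unevenly between the diets. There whole egg rats 16, 18, 20 and 22 and casein rats 14 and 24 carry a lean label, the others a ZDF label. If the labels are right, diet and genotype are partly confounded in those tests. Each result is therefore also given for the rats on which the sources gave 1 genotype where that changed a call.

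Glutathione is built from glutamate, cysteine and glycine, and the first step, glutamate-cysteine ligase, sets the pace. Glutathione peroxidases spend it on peroxides, glutathione transferases couple it to foreign or oxidised compounds or use it to reduce them, and NADPH returns the oxidised form to the reduced one. The liver is a main producer and exporter of glutathione. Several of these genes carry an antioxidant response element, the DNA site of the stress-responsive factor NRF2, in their regulatory DNA.

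The sequences ahead of 2 members are shown because Gclm held the core of that element and Idh2, which changed most, did not. Each is the 250 bases before the start of the RefSeq gene on the GRCr8 build, chr2:213031885-213032134 on the plus strand for Gclm and chr1:143467249-143467498 on the minus strand for Idh2, and capitals mark the core.
Gclm: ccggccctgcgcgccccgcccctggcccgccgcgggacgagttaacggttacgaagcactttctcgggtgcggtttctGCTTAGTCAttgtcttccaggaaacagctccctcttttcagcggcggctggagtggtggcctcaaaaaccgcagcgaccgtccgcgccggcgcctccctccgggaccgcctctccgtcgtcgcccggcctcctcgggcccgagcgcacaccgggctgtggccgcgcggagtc
Idh2: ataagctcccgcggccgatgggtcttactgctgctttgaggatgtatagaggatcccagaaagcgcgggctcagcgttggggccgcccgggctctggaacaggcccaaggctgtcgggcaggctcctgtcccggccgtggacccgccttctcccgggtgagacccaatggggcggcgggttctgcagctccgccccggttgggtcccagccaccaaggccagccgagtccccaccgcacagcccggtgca
The core searched was TGACNNNGC on both strands. It was present in 1 of the 5 members, Gclm, on the minus strand, and in 10.1% of all 33469 promoters of the same length. The leftmost base of its marked stretch, as printed, lay 172 bases before the start. All 5 members matched a RefSeq promoter by symbol. The windows without it were chr8:117905212-117905461 for Gpx1, chr4:72085364-72085613 for Gstk1 and chr1:256662281-256662530 for Gsto1, all on the plus strand, besides that of Idh2. A match in letters is not a measured binding site, and these windows say nothing of sites farther away.

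RNA was read with QuantSeq libraries, which count 1 read at the 3' end of a transcript. Summed values per library ran from 30819 to 9284567, and the shallow ones were 30819 in the adipose tissue of whole egg rat 11, 67861 and 164795 in the PFC of casein rats 3 and 5 and 138171 in the kidney of casein rat 5, all in ZDF tables. Few of the listed tissue markers could be matched to an ID, and those that could were high in most libraries of the tissue named. Apoa1, a protein secreted by hepatocytes, had at least 420.7 CPM (counts scaled to 1000000 per library, with TMM factors) in every ZDF liver library and medians of 4.04 to 87.9 CPM in the diet groups of the other tissues. In the ZDF table of adipose tissue, whole egg rat 11 had 1020 CPM and casein rat 14 had 444.9 CPM of Apoa1, both above the lowest liver library. Mbp, a myelin protein, had at least 1515 CPM in every PFC library. No kidney marker was matched. In adipose tissue the summed level of the adipocyte genes Adipoq, Fabp4 and Lpl was 580.3 CPM in lean whole egg rat 6 and 112.0 CPM in lean whole egg rat 13, against 2730 to 48229 CPM in the remaining 22 libraries. Each library is named after 1 rat, and the p-values measure the spread between rats. Which rats shared a cage is not given in the labels, so the tests treat rats as independent.

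In the liver of ZDF rats all 5 members were higher on whole egg, by 1.74-fold to 3.24-fold, and all 5 passed the test (edgeR quasi-likelihood test, two-sided, Benjamini-Hochberg adjusted over 9722 genes, FDR of 5%). Over all genes 1.65% were called higher. The members came from the genes the study itself called between the diets, so these calls are not independent evidence. Of the 5, Idh2 and Gstk1 had diet groups that did not overlap, where 1.42% of all genes did so in this direction.

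Gclm, the regulatory subunit of glutamate-cysteine ligase, had 41.0, 60.6 and 83.9 CPM as lowest, median and highest value in whole egg livers, against 20.8, 28.8 and 56.9 CPM in casein livers. The groups overlapped through casein rat 14 alone, and the other 5 casein livers lay below every whole egg liver. The log2 fold change was 0.98 ± 0.26 (SE, n = 6 each, edgeR adjusted p = 0.0310), a 1.97-fold difference.

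Idh2, the mitochondrial isocitrate dehydrogenase that makes NADPH, had 86.1, 100.1 and 125.6 CPM in whole egg livers as lowest, median and highest, against 22.5, 28.5 and 46.5 CPM in casein livers. Every whole egg liver was above every casein liver. This was the highest fold among the members, 3.24 (log2 1.70 ± 0.22, SE, n = 6 each, edgeR adjusted p = 1.11e-05).

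Gpx1, the main cytosolic glutathione peroxidase and a selenoprotein, had 962, 1334 and 2517 CPM in whole egg livers, against 653, 818 and 998 CPM in casein livers. Rat 22 gave the highest whole egg value, and whole egg rat 16 was the only whole egg liver inside the casein range. The log2 fold change was 0.83 ± 0.22 (SE, n = 6 each, edgeR adjusted p = 0.0320). Without rat 22 it was 0.61 and the adjusted p 0.111.

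Gstk1, the kappa class transferase of mitochondria and peroxisomes, had 111.7, 128.8 and 232.0 CPM in whole egg livers as lowest, median and highest, against 48.1, 71.0 and 83.6 CPM in casein livers. The groups were apart, and again rat 22 stood above the rest of its group. The log2 fold change was 1.06 ± 0.21 (SE, n = 6 each, edgeR adjusted p = 0.00198). Gsto1, the omega class transferase, which reduces oxidised substrates with glutathione, had 65.4, 104.6 and 144.8 CPM in whole egg livers, against 44.9, 61.5 and 90.5 CPM in casein livers. Rat 3 of the casein group lay above whole egg rats 7 and 16, and the remaining 4 whole egg livers were above all casein livers. Its log2 fold change of 0.80 ± 0.22 (SE, n = 6 each, edgeR adjusted p = 0.0404) was the smallest of the members, and it did not pass with RLE factors (edgeR adjusted p = 0.0531) or with limma-voom and sample weights (adjusted p = 0.0520).

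**Figure D1:**
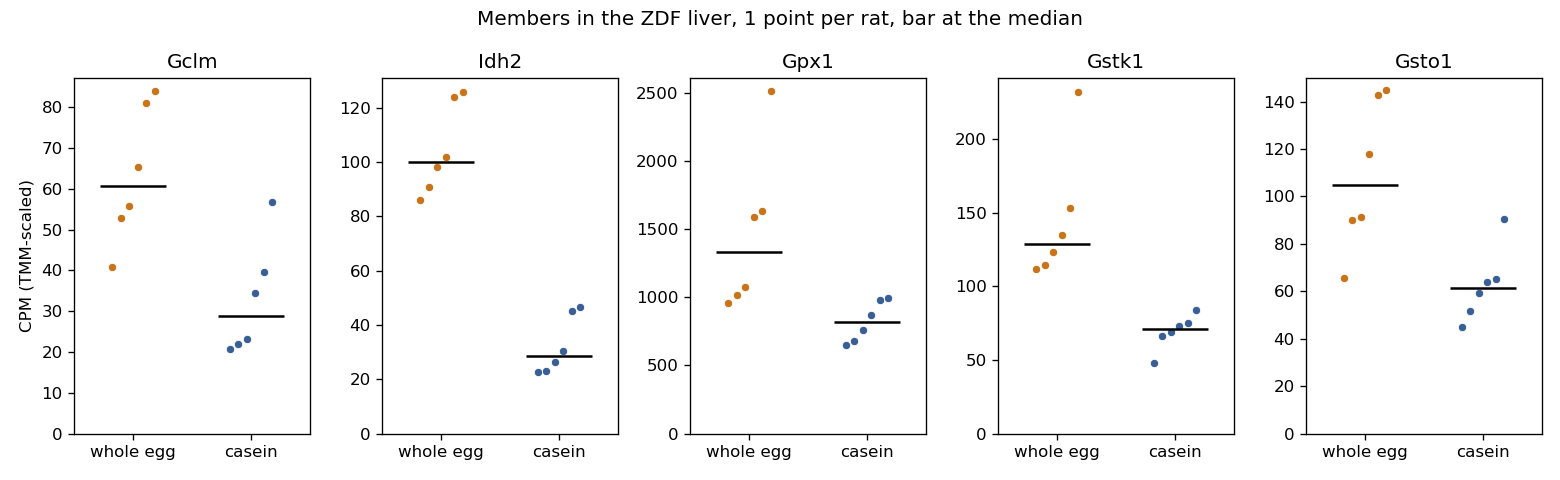
CPM of each member (vertical axis, scaled by TMM, starting at 0) in the liver of the 6 whole egg and 6 casein ZDF rats, 1 point per rat, with a bar at the median. The groups are apart for Idh2 and Gstk1 and overlap for Gclm, Gpx1 and Gsto1.

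The calls of Idh2 and Gstk1 held when any 1 of the 12 rats was left out, and those of Gclm, Gpx1 and Gsto1 did not. Without rat 1, 5, 9, 11, 20 or 22 only Idh2 and Gstk1 of the 5 were called, without rat 3 or 16 there were 3 calls, and the count of calls ranged from 2 to 5. With only the 6 rats on which both sources say ZDF (2 whole egg and 4 casein), Idh2 alone passed (log2 1.36 ± 0.30, edgeR adjusted p = 0.0293), and the other 4 had log2 fold changes of 0.46 to 1.26 with adjusted p of 0.0925 to 0.826. Apoa1 was lower in the whole egg livers of this table (log2 -1.74 ± 0.26, edgeR adjusted p = 8.57e-05), and Lyz2, a lysozyme of macrophages, had 7.89 to 19.8 CPM in whole egg livers, against 16.3 to 55.7 CPM in casein livers (log2 -1.23 ± 0.30, edgeR adjusted p = 0.0202). Of the 7 matched markers in this table Lpl (log2 -1.27 ± 0.32, edgeR adjusted p = 0.0223) and Mbp (log2 -1.18 ± 0.32, edgeR adjusted p = 0.0418) also fell. Adipoq, Fabp4 and the fibroblast collagen Col3a1 did not pass. Marker IDs came only from the study's list of called genes. It gives Apoa1, Lyz2, Lpl, Mbp, Adipoq and Fabp4 as lower in this comparison, so their falls are not independent evidence. The part of these markers in the members' change was not tested, and in bulk tissue fewer cells of a type and less RNA per cell cannot be told apart.

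The neighbours of the members were read from 7 lists of 111 further genes, of which only 20 could be matched to an ID, since symbols came from the study's list of called genes alone. Their share called is therefore not independent evidence of a direction, and the unmatched genes were not analysed here. Of 10 other matched transferases, 7 rose and 0 fell in the ZDF liver, with a median log2 fold change of 0.89 over the 10, against 0.00 over all genes. The smallest p belonged to Gstt3 (theta class, log2 3.70 ± 0.21), Gsta3 (alpha class, 3.40 ± 0.38) and Gsta1 (alpha class, 1.10 ± 0.19), with edgeR adjusted p of 2.43e-12, 1.55e-06 and 0.000558. Idh2 had 1 matched partner in NADPH supply, the cytosolic malic enzyme Me1, whose log2 fold change was -0.67 ± 0.33 (edgeR adjusted p = 0.376).

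Besides Gpx1, 0 of 3 matched peroxide and superoxide removing enzymes passed the test here. With DESeq2 the study had called catalase and the superoxide dismutase Sod2 higher in the ZDF liver. Catalase (Cat) had a log2 fold change of 0.71 ± 0.21 with an edgeR adjusted p of 0.0606, the mitochondrial superoxide dismutase Sod2 one of 0.57 ± 0.17 with 0.0696, and the peroxiredoxin Prdx6 one of 0.50 ± 0.18 with 0.183. Among NRF2 targets outside the glutathione lists, 2 of 3 rose, the quinone reductase Nqo1 (log2 3.09 ± 0.46, edgeR adjusted p = 7.69e-05) and the epoxide hydrolase Ephx1 (1.25 ± 0.24, edgeR adjusted p = 0.00172). The only matched selenoprotein besides Gpx1 was the methionine sulfoxide reductase Msrb1, which rose (log2 1.02 ± 0.21, edgeR adjusted p = 0.00330). For the mitochondrial enzymes Fh and Sdhb, 0 of 2 passed (edgeR adjusted p of 0.0890 and 0.120), while the study had called both higher.

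**Figure D2:**
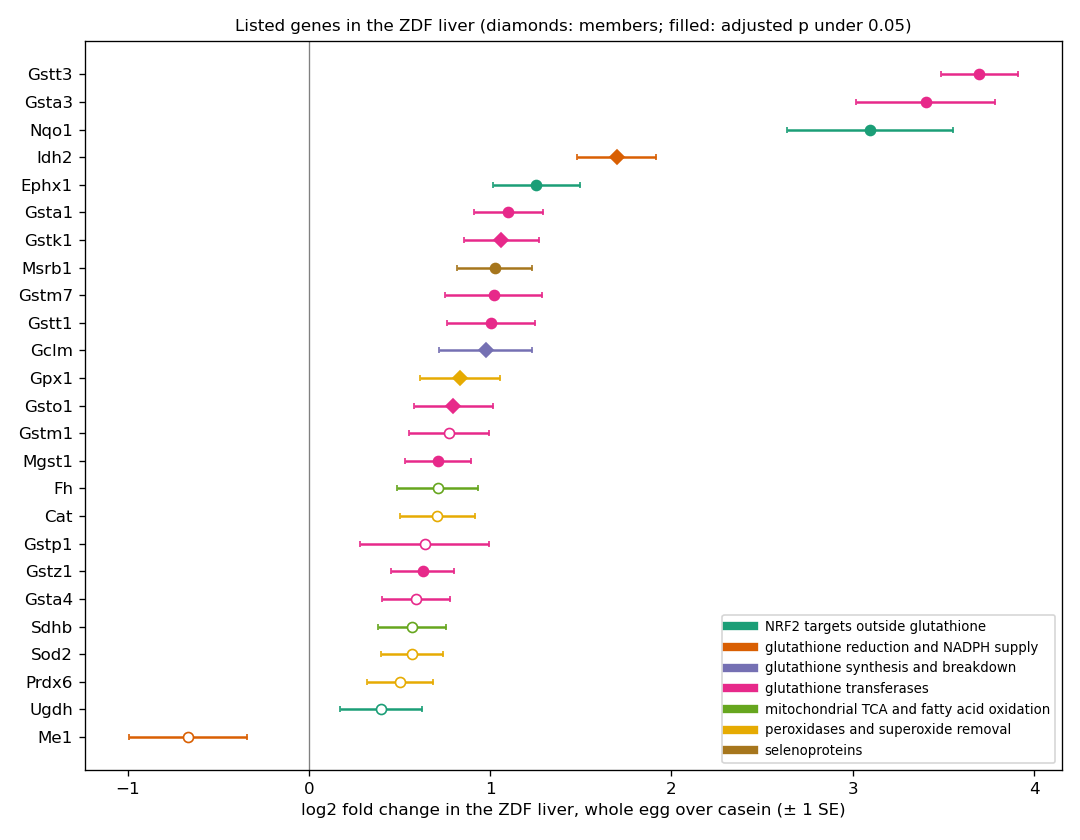
Log2 fold change (horizontal axis, whole egg over casein, bars of 1 SE) of the 5 members and the 20 matched listed genes in the ZDF liver, coloured by list, with diamonds for members and filled symbols for an adjusted p under 0.05. Idh2 at 1.70 lies below Gstt3, Gsta3 and Nqo1, and the other 4 members lie between 0.80 and 1.06.

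Outside the liver, 0 of the 5 members passed in any of the 6 tables, and 0 genes of any kind did so at an FDR of 5% (0% called). The values of these tables are scaled counts, so the test there was limma on log2(CPM + 1), and fold changes are on that scale, which understates changes of low genes. At an unadjusted p under 0.05, 258 to 647 genes per table passed, among them Gpx1 in ZDF adipose tissue and no other member. On reads recovered from the scaled values edgeR called 0 to 3 genes per table and DESeq2 0 to 160, and neither called a member.

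**Figure D3:**
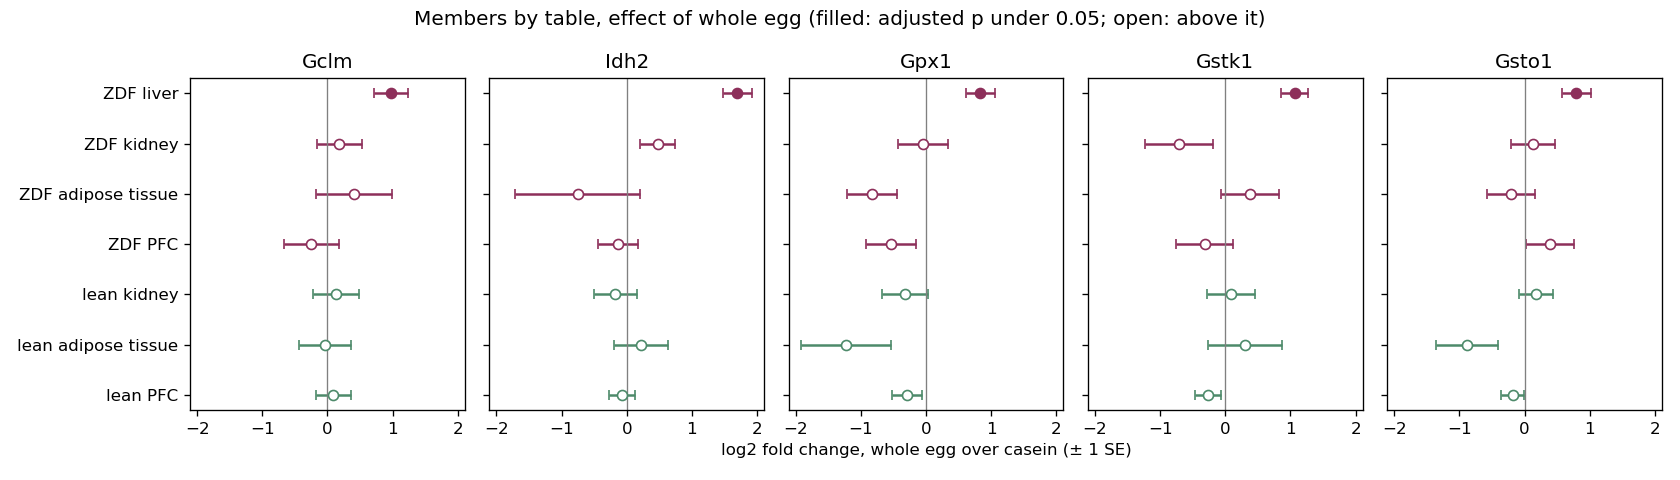
Log2 fold change of each member (horizontal axis, whole egg over casein, bars of 1 SE) in the 7 tables that hold both diets, ZDF tables above lean ones, filled where the adjusted p was under 0.05. Filled points occur in the ZDF liver only, and Gpx1 is left of 0 in the 6 other tables.

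In the kidney Idh2 had 176.6, 311.7 and 373.3 CPM as lowest, median and highest in whole egg rats of the ZDF table, against 150.9, 202.5 and 281.0 CPM in casein rats. Whole egg was above the highest casein value in 4 of 6 rats, but the log2 fold change of 0.47 ± 0.27 did not pass (limma adjusted p = 0.914), in a table where the median of all genes was 0.12. In the lean table Idh2 had 81.2, 142.7 and 264.1 CPM in whole egg kidneys, against 97.8, 160.9 and 310.0 CPM in casein kidneys, with a log2 fold change of -0.17 ± 0.32 (limma adjusted p = 0.991). Gclm had medians of 390.5 CPM in whole egg and 347.2 CPM in casein kidneys of the ZDF table (log2 0.18 ± 0.34), and of 390.8 CPM in whole egg and 290.1 CPM in casein kidneys of the lean table (log2 0.13 ± 0.35). The ranges of Gclm overlapped in both. With only the 3 whole egg and 3 casein rats that both sources call lean, the log2 fold change of Gclm was 0.96 ± 0.30 (limma adjusted p = 0.438).

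In the kidney Gpx1 varied widely within the diets. In the ZDF table it had 184.3, 466.7 and 1087 CPM in whole egg rats, against 323.8, 380.5 and 1367 CPM in casein rats, and in the table of lean rats it had 149.8, 295.3 and 919.9 CPM in whole egg rats, against 237.6, 381.5 and 658.7 CPM in casein rats. The highest value lay far above the next one for casein rat 1 in the ZDF table, at 1367 against 682.6 CPM. The same held for whole egg rat 2 in the lean table, at 919.9 against 331.0 CPM. The log2 fold changes of Gpx1 were -0.05 ± 0.38 in the ZDF and -0.32 ± 0.35 in the lean table (limma adjusted p of 0.987 and 0.986). With only the rats of 1 genotype in both sources they were -1.04 ± 0.57 in the ZDF table (2 whole egg and 4 casein rats, limma adjusted p = 1.00) and -1.20 ± 0.33 in the lean table (3 rats of each diet, limma adjusted p = 0.281). Gstk1 had medians of 23.7 CPM in whole egg and 32.4 CPM in casein kidneys of the ZDF table (log2 -0.72 ± 0.52, limma adjusted p = 0.914) and rested on 3 recovered reads in whole egg rat 22 and 8 in casein rat 5. In the lean table its medians were 29.9 CPM in whole egg and 27.6 CPM in casein kidneys. Gsto1 had log2 fold changes of 0.13 ± 0.34 in the ZDF and 0.18 ± 0.26 in the lean table.

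In the ZDF table of adipose tissue, Gpx1 had 345.6, 872.4 and 1194 CPM as lowest, median and highest in the whole egg group, against 893.5, 1186 and 1850 CPM in casein rats, so that 5 of 6 whole egg rats lay below the lowest casein rat. This order depends on the TMM factor of casein rat 5, which was 0.404. Without TMM factors rat 5 was the lowest casein rat, at 361.8 CPM of Gpx1. Only whole egg rat 7 then lay below it, at 328.1 CPM. The log2 fold change was -0.83 ± 0.39 with an unadjusted limma p of 0.0472 and an adjusted p of 0.842, where the median of all genes was -0.39. Without the shallow library of whole egg rat 11 it was -0.64 ± 0.33 (adjusted p = 0.629).

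In the lean table Gpx1 had 55.5, 519.5 and 1333 CPM in whole egg adipose tissue, against 359.2, 1048 and 1536 CPM in casein adipose tissue (log2 -1.23 ± 0.69, limma adjusted p = 0.835). The lowest values, 55.5 and 117.7 CPM, belonged to whole egg rats 13 and 6, whose adipocyte genes were low as given above. Without these rats the log2 fold change was -0.15 ± 0.45 (limma adjusted p = 0.997). Gsto1 had 16.2, 70.2 and 110.1 CPM in whole egg rats of this table, against 55.9, 112.8 and 230.7 CPM in casein rats (log2 -0.88 ± 0.48, limma adjusted p = 0.835), and without the same 2 rats the log2 fold change was -0.49 ± 0.41.

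Beside Gpx1 in fat, the macrophage gene Lyz2 had medians of 1977 CPM in whole egg and 4938 CPM in casein rats of the ZDF table (log2 -1.44 ± 0.67, limma adjusted p = 0.842) and of 717.0 CPM in whole egg and 1114 CPM in casein rats of the lean table (log2 -1.66 ± 0.69, limma adjusted p = 0.835). The summed adipocyte genes had medians of 19138 CPM in whole egg and 12235 CPM in casein rats of the ZDF table and of 16947 CPM in whole egg and 22711 CPM in casein rats of the lean table. Their part in the values of Gpx1 was not tested.

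**Figure D4:**
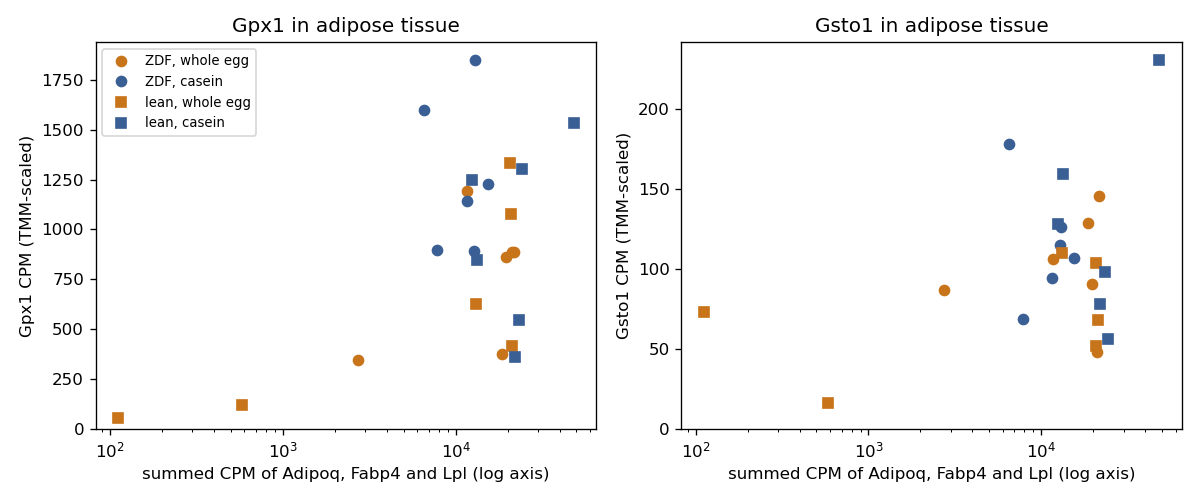
Gpx1 (left) and Gsto1 (right) in adipose tissue, CPM scaled by TMM (vertical axis) against the summed CPM of Adipoq, Fabp4 and Lpl (horizontal log axis), 1 symbol per rat, circles for ZDF and squares for lean tables, orange for whole egg and blue for casein. The 2 squares at the far left are lean whole egg rats 13 and 6, with 55.5 and 117.7 CPM of Gpx1.

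The other members in fat had overlapping diet groups. Gstk1 had medians of 29.3 CPM in whole egg and 19.2 CPM in casein rats of the ZDF table (log2 0.38 ± 0.45), and of 33.8 CPM in whole egg and 27.9 CPM in casein rats of the lean table (log2 0.30 ± 0.56). Gsto1 had a log2 fold change of -0.20 ± 0.37 in the ZDF table, and Gclm and Idh2 had -0.04 ± 0.40 and 0.22 ± 0.41 in the lean one. Gclm had medians of 38.1 CPM in whole egg and 29.1 CPM in casein rats of the ZDF table (log2 0.40 ± 0.58), and its highest value there, 138.2 CPM, rested on 5 recovered reads of whole egg rat 11. In that same library Idh2 had 0 reads, which allows a level of up to 84.8 CPM with the library's TMM factor (3 reads of the library's 18834, counting error only). Idh2 had a log2 fold change of -0.75 ± 0.96 in the ZDF table with this library and 0.25 ± 0.46 without it (limma adjusted p of 0.851 and 0.918).

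In the PFC of lean rats, where libraries summed to 2015473 to 4600987, 0 of the 5 passed. Gpx1 had 39.6, 58.6 and 108.6 CPM in whole egg rats, against 57.9, 73.2 and 104.6 CPM in casein rats (log2 -0.29 ± 0.23, limma adjusted p = 0.996), and Gstk1 had 10.6, 12.6 and 16.1 CPM in whole egg rats, against 12.1, 15.5 and 20.9 CPM in casein rats (log2 -0.27 ± 0.20, limma adjusted p = 0.996). Gclm, Idh2 and Gsto1 had log2 fold changes of 0.09 ± 0.27, -0.08 ± 0.20 and -0.18 ± 0.18. The diet groups of every member overlapped.

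In the ZDF table of the PFC the casein group held 2 shallow libraries. Gpx1 had 55.2, 75.6 and 91.3 CPM in whole egg rats, against 54.1, 98.9 and 284.5 CPM in casein rats, and the highest casein values, 284.5 and 171.9 CPM, came from rats 3 and 5. The value of rat 5 depends on its TMM factor of 0.459. Without TMM factors rat 3 was still highest, at 235.8 CPM, but rat 5 had 78.9 CPM, below casein rat 24 at 138.2 CPM. In the libraries of rats 3 and 5 Adipoq, Fabp4 and Lpl summed to 2312 and 1044 CPM with TMM factors, against 53.5 to 182.1 CPM in the other 10 of the table, and the part of this in the members' values was not tested. The log2 fold change of Gpx1 was -0.54 ± 0.38 (limma adjusted p = 0.554) with all 12 rats, where the median of all genes was 0.33, and -0.03 ± 0.25 (adjusted p = 0.979) without rats 3 and 5. Gclm rested on 1 and 2 recovered reads in those rats, and the 5 members had log2 fold changes between -0.54 and 0.39 with them and between -0.08 and 0.10 without them.

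Over both genotypes, with the table as a term, 0 of the 5 members passed for diet in kidney, adipose tissue or PFC (limma adjusted p of 0.633 to 0.993). The lowest p was that of Gpx1 in adipose tissue, whose log2 fold change was -1.04 ± 0.41 (unadjusted p = 0.0170, adjusted p = 0.633). Without lean whole egg rats 6 and 13, whose adipocyte genes were low, it was -0.54 ± 0.31 (adjusted p = 0.735), and without ZDF rat 11 it was -0.96 ± 0.41 (adjusted p = 0.651). In kidney Gpx1 had -0.20 ± 0.27 and in PFC -0.44 ± 0.23, the value in PFC being -0.19 ± 0.17 without the shallow libraries of ZDF casein rats 3 and 5 (limma adjusted p = 1.00). The interaction of diet and genotype passed for 0 of the 5 in each of the 3 tissues (limma adjusted p of 0.541 to 1.00), and 0 genes of any kind (0%) passed in these joint fits. At an unadjusted p under 0.05 there were 210 to 525 genes for diet and 273 to 877 for the interaction, and DESeq2 on recovered reads called 0 to 16 and 0 to 61. A difference in the effect of diet between the liver and the other tissues was not tested.

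Genotype could be compared in the liver inside 1 table, which holds casein rats only, so no diet effect is given for lean livers. On the 6 rats with 1 genotype in both sources, Gclm had 21.0, 22.6, 23.1 and 35.0 CPM in ZDF rats 1, 3, 5 and 9, against 37.4 and 71.1 CPM in lean rats 15 and 19. Gsto1 had 52.1, 93.2, 65.1 and 60.3 CPM in the same ZDF rats, against 95.3 and 106.6 CPM in the lean ones. For both genes every ZDF value lay below both lean values, as it did for 9.09% of all genes.

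The test did not call either. Gclm had a log2 fold change of -1.03 ± 0.37 (ZDF over lean, limma adjusted p = 0.311) and Gsto1 one of -0.61 ± 0.28 (limma adjusted p = 0.467). Idh2, Gpx1 and Gstk1 overlapped between the genotypes, with log2 fold changes of 0.40 ± 0.36, -0.28 ± 0.23 and -0.44 ± 0.30. In all, 0 of the 5 members passed, and 0.136% of all genes were called. Leaving out either lean rat sets the 4 ZDF rats against 1 lean rat, so that the spread comes from the ZDF rats alone and the lone lean rat is assumed to vary as they do. Without lean rat 19 the log2 fold change of Gclm was -0.58 and 0 genes of any kind were called, and without lean rat 15 it was -1.50 and 115 genes were. When all 11 rats of the table were placed by column name, Gclm had -0.28 ± 0.34, and when they were placed by the strain label it had -0.86 ± 0.29.

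Levels across tissues are given as plain CPM (each value over the sum of its library, with no further scaling) and as a description, because each table was scaled by itself. Gclm had its highest median in the kidney, 394.8 CPM in ZDF and 311.6 CPM in lean rats, and its lowest in the PFC, 7.76 CPM in ZDF and 5.97 CPM in lean rats. Kidney and PFC did not overlap in either genotype, and the medians of liver and adipose tissue lay between them, with ranges that overlapped each other. Idh2 also had its highest median in the kidney, at 207.6 CPM in ZDF and 158.5 CPM in lean rats. In the liver Idh2 had a median of 63.9 CPM in ZDF rats over both diets and 33.7 CPM in lean rats, all on casein.

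Gpx1 was high in liver and adipose tissue and low in the PFC. Its medians in ZDF rats were 1016 CPM in liver, 391.9 CPM in kidney, 919.2 CPM in adipose tissue and 80.2 CPM in PFC, and in lean rats they were 1026, 272.5, 826.3 and 61.7 CPM in the same order of tissues. The ranges of liver and adipose tissue overlapped, and those of liver and PFC did not. Gstk1 had its highest median in liver, 97.9 CPM in ZDF and 86.9 CPM in lean rats, and medians of 14.1 to 31.2 CPM in the other tissues. For every member the ZDF liver median covers both diets and the lean one casein rats only. On casein alone, by column name and with TMM factors, the liver medians of Gstk1 were 72.6 CPM in ZDF and 85.7 CPM in lean rats. Those of Gpx1 were 834.7 CPM in ZDF and 1064 CPM in lean rats. Gsto1 had medians from 64.6 CPM in the lean PFC to 136.3 CPM in the ZDF kidney, and ranges that overlapped in every pair of tissues.

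**Figure D5:**
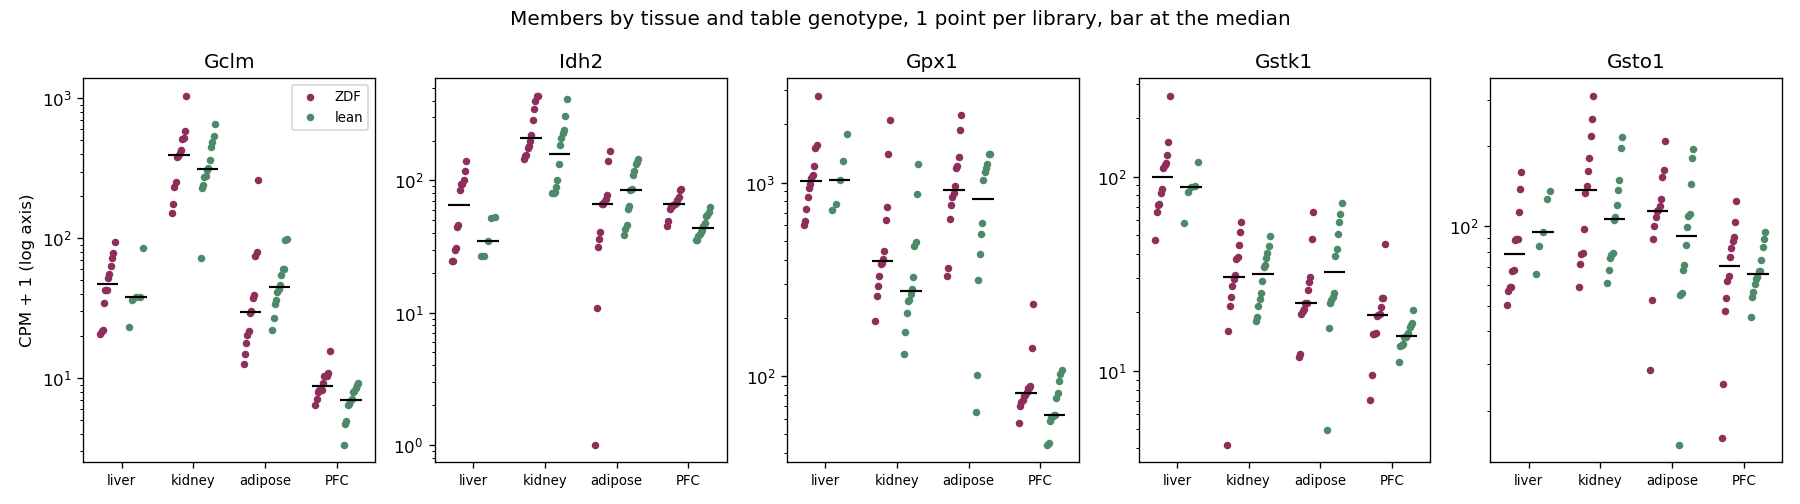
Plain CPM plus 1 (vertical log axis) of each member in liver, kidney, adipose tissue and PFC, 1 point per library with a bar at the median, ZDF tables left of lean ones in each tissue. Gclm is highest in kidney and lowest in PFC, Gstk1 is highest in liver, and the point of Idh2 at 1 in ZDF adipose tissue is the library with 0 reads.

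Over the 15 group means of tissue, genotype and diet, the members did not share a single pattern. Pearson's r of mean log2(CPM + 1) was 0.77 between Gclm and Idh2, 0.77 between Gclm and Gsto1 and 0.72 between Gpx1 and Gstk1, and it was -0.04 between Idh2 and Gstk1. Of the 5170 genes in all tables, those most like Gstk1 included Cyp2c11, a male-typical liver cytochrome of the rat (r = 0.96), and Acox2, a peroxisomal oxidase of bile acid side chains (r = 0.95). The most similar genes to the other members carried no symbol. Among the 321 genes with a symbol, a narrower choice made after the values were seen, Oat, a mitochondrial aminotransferase of ornithine, was closest to Gclm (r = 0.97), Cited2, a transcriptional cofactor, to Idh2 (r = 0.87), Cat to Gpx1 (r = 0.94) and Msrb1 to Gsto1 (r = 0.82). These r rest on means that share libraries and mostly follow tissue.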

How the data were processed

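QuantSeq libraries, read at the 3' end, came from liver, kidney, adipose tissue and PFC of 24 rats. Per the labels' processing notes the authors used FastQC, STAR and DESeq, whose versions were not given in the sources used here. Per the study's methods, reads were aligned to the RNO 6.0 rat genome with Ensembl release 94, STAR counted them per gene, and the authors' own tests ran in R 3.6.0. The ZDF liver table deposited by the authors holds raw read counts per gene. The other 7 mRNA tables deposited by the authors are used here as a score: counts multiplied by 1 factor per library and rounded, found from the values, since lean liver values equalled ZDF liver counts times a factor. The 8 tables hold 96 columns from 89 distinct libraries (7 liver libraries stand in both liver tables), and 0 columns had no sample. The authors' tables of fold changes and p-values between groups, and the microRNA tables, were not used.

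Diet was taken from the labels and genotype from table and column names. The ZDF liver table, without a casein library named lean, was tested with edgeR 4.0.16 (quasi-likelihood test, TMM factors, no further filter), and SE is the log2 fold change over the root of F. The planned count test did not suit scaled values, so the other tables were tested with limma 3.58.1 (trend) on log2(TMM CPM + 1). Reads recovered by dividing out the factors served edgeR and DESeq2 1.42.0 as alternatives. p-values are two-sided and Benjamini-Hochberg adjusted over all genes of a fit. The fits were tested on simulated data. Genes with a symbol (550 of 12563) came from the study's table of called genes. Members and lists were chosen with earlier results of these data known. All members are named in every table; from each list up to 4 called genes with the smallest p; for likeness the 3 genes with the highest r. Alternatives were other normalizations, tests, filters, pseudocounts, genotype sources and left-out rats. Figures used matplotlib 3.10.9.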

Additional observations from a re-analysis of the deposited data

Results flagged for a closer look

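In 7 of 75 groups of rats (member by table and diet) the highest rat lay farther from its neighbours than Dixon's 95% limit allows. Chance flags about 1 in 20 groups when values are normally distributed. CPM were used here without a log, so that rate need not hold. Gstk1 in the whole egg liver of ZDF rat 22 had 232.0 CPM. Gpx1 had 919.9 CPM in the whole egg kidney of lean rat 2 and 1367 CPM in the casein kidney of ZDF rat 1. Gclm had 66.7 CPM in the casein adipose tissue of ZDF rat 14. In the PFC, Gsto1 had 85.5 CPM in lean whole egg rat 2, Gstk1 had 53.3 CPM in ZDF casein rat 3 and Idh2 had 145.4 CPM in ZDF casein rat 5, and the values in rats 3 and 5 rest on 4 and 23 recovered reads. That library of rat 5 had a TMM factor of 0.459. Without TMM factors its Idh2 was 66.7 CPM, inside the 44.2 to 84.5 CPM of the ZDF PFC.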

How the results depend on the processing

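In the ZDF liver 5 members were called, and 3 with a minimum count of 10, 3 with limma on log2 CPM and 1 with only the rats of 1 genotype in both sources, while 2 to 5 were called when single rats were left out. With RLE factors and with limma-voom 4 were called, since Gsto1 lost its call (adjusted p of 0.0531 and 0.0520). In all the other tables and fits 0 of 5 were called under every alternative run. Of 244 counts of called members 233 stayed within 1.5 times the value given, and of 950 single values 869 kept direction and call, 47 turned sign and 34 lost the call. The 11 counts that moved and all 34 lost calls were in the ZDF liver, the only table with calls to lose. There 7 of 10 alternatives other than left-out rats kept the count within that limit. Elsewhere the count was 0 in every run, and staying at 0 was taken as kept. None of the values that turned sign had been called, and the cause was not tested. With DESeq2, Gclm in ZDF kidney was -0.0074 and Idh2 in ZDF adipose tissue 0.12, and with TMM factors in DESeq2 Idh2 there was 0.22 and Gclm in ZDF PFC 0.039. With limma-voom, Gpx1 in ZDF kidney was 0.12, Idh2 and Gsto1 in ZDF adipose tissue 0.12 and 0.056, and Gclm and Idh2 in ZDF PFC 0.011 and 0.036. With edgeR on recovered reads and on values as deposited, Idh2 in ZDF adipose tissue was 0.24 and 0.20 and Gclm in ZDF PFC 0.0068 and 0.034. With only the rats of 1 genotype in both sources, Idh2 and Gsto1 in ZDF kidney were -0.11 and -0.13, Gsto1 in ZDF adipose tissue 0.12, Gsto1 in lean kidney -0.020, Gclm and Gstk1 in lean adipose tissue 0.54 and -0.30, and Idh2 in lean PFC 0.14. With the same rats, values that kept their sign but moved by over 1.5 times included Gpx1 in ZDF kidney (-1.04), lean kidney (-1.20), ZDF adipose tissue (-1.56), lean adipose tissue (-0.75) and lean PFC (-0.47), Gclm in lean kidney (0.96) and ZDF adipose tissue (1.65) and Idh2 in ZDF adipose tissue (-2.68), and those in ZDF adipose tissue include the shallow library of rat 11. The fits over both genotypes without rats 6 and 13, 11, or 3 and 5 were chosen after seeing the data. Without rats 3 and 5, Gclm and Idh2 in ZDF PFC were 0.10 and 0.045. Between genotypes in the liver, Idh2 was -0.15 with column names and Gsto1 0.024 with the strain label.

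Leaving out 1 rat at a time, the log2 fold change ranged for Gclm from -0.026 to 0.38 in ZDF kidney, -0.11 to 0.19 in lean PFC, -0.22 to 0.14 in lean adipose tissue and -0.068 to 0.48 in lean kidney, for Gpx1 from -0.29 to 0.24 in ZDF kidney and -0.59 to 0.0091 between genotypes in liver, for Gstk1 from -0.15 to 0.60 in lean adipose tissue and -0.046 to 0.23 in lean kidney, for Gsto1 from -0.045 to 0.28 in ZDF kidney, and for Idh2 from -0.24 to 0.056 in ZDF PFC and -1.23 to 0.25 in ZDF adipose tissue. Counts over all genes differed by more than 1.5 times for ZDF liver with the rats of 1 genotype (114 against 285), for ZDF PFC with DESeq2 (160, and 67 with TMM factors, against 0), for ZDF adipose tissue with DESeq2 (14 and 15), limma-voom (33) and without rat 11 (7), for lean adipose tissue with DESeq2 (15), over both genotypes in adipose tissue with DESeq2 (16 and 15) and limma-voom (31), for the interaction in PFC with DESeq2 (61 and 40) and for the liver genotypes with DESeq2 (60 and 58 against 11) and with either source for all rats (1), where leaving out single rats gave 0 to 115. The remaining fits with calls over all genes had 1 to 6 of them against 0.

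Depth limits the ZDF tables of adipose tissue, kidney and PFC, where members rested on few reads in the shallow libraries. Levels were not tested between genotypes outside the liver or between tissues, because the tables were scaled separately. The planned block by rat between tissues was therefore not run. No paired analysis was possible because each rat is in 1 diet group and no number pairs rats across the groups.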
